A study of Mus musculus with 9 samples.

Results

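ER stress and heat shock chaperones are described here as a set of 40 mouse genes, of 55536 gene IDs in the deposited count table. The set is a list of gene symbols with no threshold on measured values, and it was drawn up with earlier results of these data known. It holds 23 genes of the unfolded protein response and of folding and degradation in the endoplasmic reticulum (ER), and 17 cytosolic and mitochondrial heat shock genes. Of the 40 genes, 39 passed the filter on low counts and were tested among 13815 genes. The exception was Hspb1, which encodes a small heat shock protein and was listed at 0 counts except for 2 counts in PBS replicate 2. Of its 50-base sequence words, 50.1% recur in other annotated genes, most in Hsp25-ps1, so its counts are uncertain.

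The cells were bone marrow-derived macrophages (BMDM) of wild-type genotype, grown from marrow of male mice aged 6 to 12 weeks with 25 ng/mL M-CSF, the macrophage growth factor, over 6 days in medium with 10% fetal bovine serum. For 18 hours they then received exosomes, small membrane vesicles that cells release, at 2e+09 particles/mL, or the vehicle. The groups, of 3 libraries each, were EKO-BMDM-exo (vesicles from marrow-derived cells of ApoE-deficient mice), WT-BMDM-exo (vesicles from those of wild-type mice) and PBS. The design text calls the replicates biological, and nothing in the labels ties them to separate mice or vesicle preparations, so the p-values rest on the variation among libraries, part of which may be technical.

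When unfolded proteins load the ER, the chaperone BiP binds them and is drawn off the membrane sensors IRE1, PERK and ATF6. ATF6 is then cut to a transcription factor, IRE1 splices Xbp1 mRNA, and PERK slows translation and favours synthesis of ATF4; together these raise ER chaperones, lectins, disulfide isomerases and the degradation machinery. In the cytosol, HSF1 is held back by HSP70 and HSP90 chaperones and, once released, activates genes for HSP70, HSP90, HSP110, J proteins and mitochondrial chaperonins. Macrophages secrete many proteins and express ER folding genes at rest. Gene counts do not show Xbp1 splicing, ATF6 cleavage or phosphorylation.

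Each library had 28581306 to 35929596 counts and 17150 to 18680 detected genes. On the first principal component, which held 15.2% of the variance, WT-BMDM-exo replicate 3 lay at 57.5 and the other 8 libraries between -16.8 and 3.43. The second component held nearly the same share, 15.1%, and on it WT-BMDM-exo replicate 2 lay at -45.4, EKO-BMDM-exo replicate 2 at 38.0 and the other 7 libraries between -7.07 and 17.8. For each exosome group against PBS, the genes of the set called are therefore also given below without its own libraries among these 3. Summed macrophage markers were 20183 to 21130 CPM in EKO-BMDM-exo, 20343 to 21000 CPM in WT-BMDM-exo and 21904 to 23144 CPM in PBS, and 4 of 6 passed the test as lower in each exosome group, while Cd68 passed as higher with WT-BMDM-exo. No macrophage marker was at 0 in any group. Summed neutrophil markers were 3.78 to 17.9 CPM in EKO-BMDM-exo, 10.3 to 30.6 CPM in WT-BMDM-exo and 20.8 to 29.9 CPM in PBS, with Ly6g and Mpo at 0 throughout EKO-BMDM-exo, Elane throughout WT-BMDM-exo and Ly6g throughout PBS. Stromal markers summed to 5.68 to 24.4 CPM in EKO-BMDM-exo, 16.6 to 29.9 CPM in WT-BMDM-exo and 8.74 to 62.5 CPM in PBS, with Lum at 0 in all. All 5 erythroid markers were at 0 in every library, and B cell, dendritic cell, mast cell and T and NK cell markers summed to at most 2.03 CPM. The part of these differences in the chaperone results was not tested, and in bulk RNA fewer cells of a type and less RNA per cell cannot be told apart.

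Lectin, HSP90 and other folding genes led the set by level, and the inducible HSP70 genes came last. On a scale per length (TPM), 20 of the 39 tested genes averaged over 100 TPM across all libraries. Calr, a lectin chaperone that also buffers ER calcium, was the most abundant at 1369 TPM on average, followed by Hsp90ab1, the constitutive cytosolic HSP90, at 1089 TPM. Pdia3 (541 TPM), a disulfide isomerase that works with the lectins, Hspa5 (483 TPM), P4hb (464 TPM), Hsp90b1 (460 TPM) and Canx (428 TPM) came next. Between these, Hspa5 ranged from 435 to 537 TPM over the libraries, P4hb from 446 to 490, Hsp90b1 from 431 to 482 and Canx from 400 to 450, so that these neighbours in the order overlapped. The transcription factor Hsf1 averaged 21.1 TPM, and the inducible HSP70 genes Hspa1a and Hspa1b averaged 1.23 and 0.441 TPM. In the set, 8 genes share over 20% of their 50-base sequence words with other genes, so their levels are uncertain. Hspa1a (66.3%) and Hspa1b (62.3%) share the most.

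**Figure D1:**
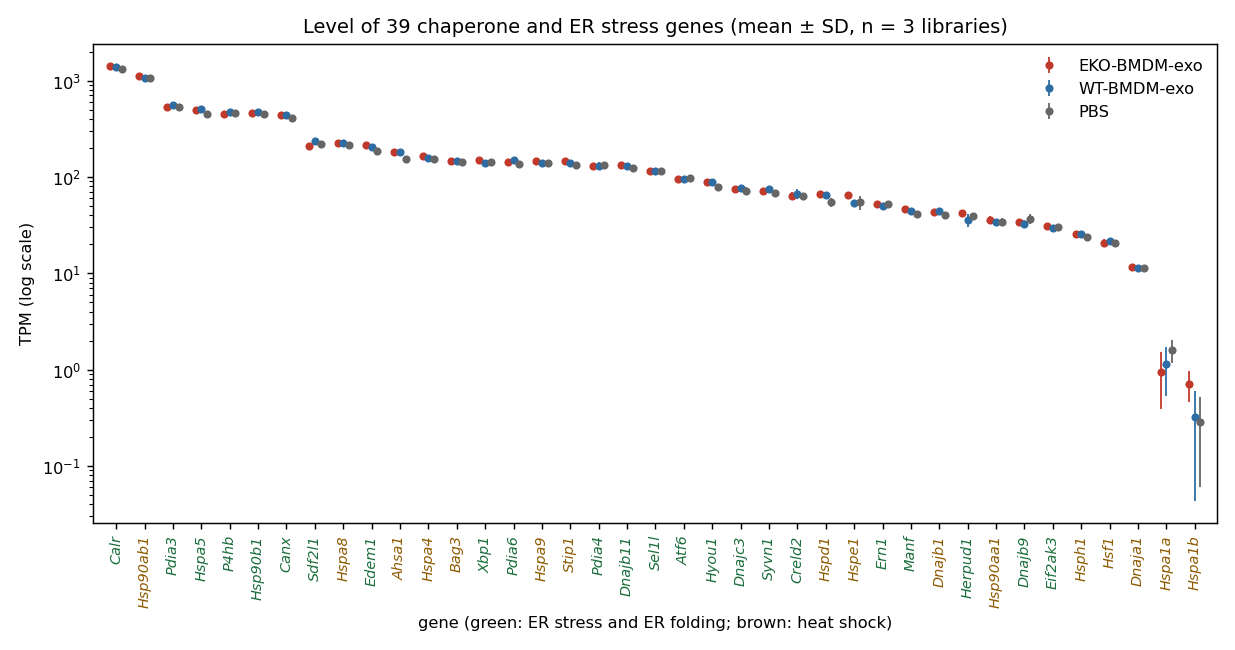
Level of the 39 tested chaperone and ER stress genes in TPM (log scale), as mean ± SD over 3 libraries for EKO-BMDM-exo, WT-BMDM-exo and PBS, ordered by the mean over all libraries. Levels run from 1369 TPM for Calr to 0.441 TPM for Hspa1b, and the groups lie close together for nearly every gene.

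The summed level of all 40 genes was 7780, 7970 and 7929 TPM in EKO-BMDM-exo libraries and 7726, 7856 and 7894 TPM in WT-BMDM-exo libraries, against 7467, 7583 and 7471 TPM in PBS libraries. Every exosome library was thus above every PBS library, by a small margin. The ER genes summed to 5490 ± 83.1 TPM in EKO-BMDM-exo, 5512 ± 81.2 TPM in WT-BMDM-exo and 5266 ± 77.1 TPM in PBS (SD, n = 3 each). The heat shock genes summed to 2403 ± 20.6 TPM in EKO-BMDM-exo, 2313 ± 14.9 TPM in WT-BMDM-exo and 2241 ± 13.9 TPM in PBS (SD, n = 3 each). These sums weigh the abundant genes most, Calr and Hsp90ab1 first, and were given no test.

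A handful of chaperone genes rose with exosomes, all by a modest amount, and none fell. With EKO-BMDM-exo, Hspa5, Edem1, Hspd1 and Ahsa1 passed the test as higher than in PBS (edgeR quasi-likelihood, adjusted p under 0.05 over all genes). With WT-BMDM-exo, Hspa5, Hyou1, Edem1 and Ahsa1 passed. The count was 4 of 39 genes tested, or 10.3%, in each comparison, against 4.23% of all genes for EKO-BMDM-exo against PBS and 4.11% for WT-BMDM-exo against PBS. Counting only genes higher in the exosome group, the share of all genes was 1.82% for EKO-BMDM-exo and 1.93% for WT-BMDM-exo. The mean of both exosome groups against PBS called 6 genes, or 15.4%, all higher, adding Canx, against 5.31% of all genes in either direction and 2.52% higher. Of the libraries that stood apart, leaving out WT-BMDM-exo replicate 3 left 2 genes (Hspa5 and Ahsa1) called for WT-BMDM-exo, and leaving out WT-BMDM-exo replicate 2 left 3, without Hyou1. Leaving out EKO-BMDM-exo replicate 2 left 3 genes called for EKO-BMDM-exo, without Hspd1. The comparisons share the PBS libraries. The shares of all genes given here and below were not matched for level. In the set, 37 genes had over 10 CPM in every library, and small changes pass more readily at higher counts.

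Most of the other genes leaned the same way without passing the test. The log2 fold change was positive for 31 of 39 genes with EKO-BMDM-exo and for 29 of 39 with WT-BMDM-exo against PBS. These counts include the 4 genes called in each comparison. Of all genes tested, 49.8% were positive with EKO-BMDM-exo and 49.2% with WT-BMDM-exo. The median log2 fold change of the set was 0.07 with EKO-BMDM-exo and 0.05 with WT-BMDM-exo. For all genes tested the median was -0.0005 with EKO-BMDM-exo and -0.0033 with WT-BMDM-exo. The EKO-BMDM-exo and PBS libraries did not overlap for 11 genes (28.2%), all higher with exosomes, against 18.3% of all genes. For WT-BMDM-exo and PBS this held for 11 genes (28.2%), 10 higher and 1 lower, against 17.5% of all genes.

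**Figure D2:**
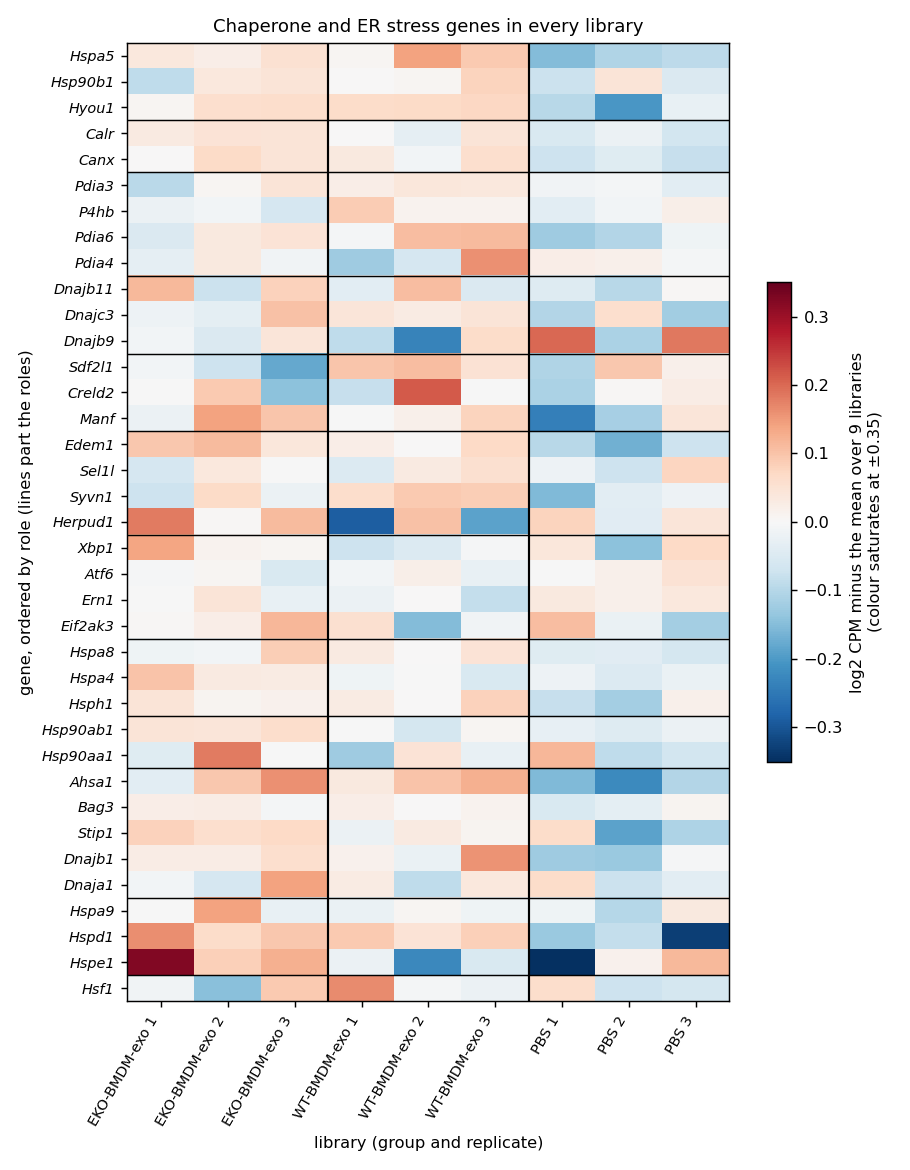
Deviation of log2 CPM from the mean over 9 libraries (colour) for the 37 genes with over 10 CPM in every library, by role (rows) and library (columns, EKO-BMDM-exo, WT-BMDM-exo, PBS). Hspa5, Edem1, Ahsa1 and Hspd1 are below their mean in every PBS library, while Hspe1 spans the widest range, -0.36 to 0.32.

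Of the ER chaperones of the HSP70, HSP90 and HSP110 families, Hspa5 passed the edgeR test with both vesicles, and Hsp90b1 with neither. Hyou1 passed with WT-BMDM-exo and not with EKO-BMDM-exo, at similar log2 fold changes. Hspa5 (ENSMUSG00000026864, chr2:34771970-34777547, plus strand, GRCm38) encodes BiP, the HSP70 of the ER lumen. It had 557, 551 and 563 CPM in EKO-BMDM-exo libraries and 546, 599 and 578 CPM in WT-BMDM-exo libraries, against 489, 504 and 510 CPM in PBS libraries. All 6 exosome libraries were above all PBS libraries. The log2 fold change against PBS was 0.15 ± 0.03 (SE) with EKO-BMDM-exo (11.2% higher, adjusted p = 0.003) and 0.20 ± 0.03 with WT-BMDM-exo (14.6% higher, adjusted p = 0.0001). Hspa5 is the classical target of ATF6 and XBP1, and its promoter is shown because it holds the ER stress response element (ERSE), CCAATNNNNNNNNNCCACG, in which the nuclear factor Y and ATF6 sites are joined. The RefSeq window (GRCm38.p6, chr2:34771840-34772139, plus strand, 250 bases before to 50 after the start) is printed with the fixed bases of the element in capitals, at -65 to -47 from the start.
Hspa5: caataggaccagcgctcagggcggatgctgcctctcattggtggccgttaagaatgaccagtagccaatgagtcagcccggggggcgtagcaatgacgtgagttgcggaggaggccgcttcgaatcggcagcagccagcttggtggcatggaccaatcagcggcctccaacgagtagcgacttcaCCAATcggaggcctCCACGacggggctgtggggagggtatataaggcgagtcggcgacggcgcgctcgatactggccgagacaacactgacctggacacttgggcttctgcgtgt

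Hyou1 (ENSMUSG00000032115, chr9:44379490-44392369, plus strand) encodes the ER HSP110 that exchanges nucleotide on BiP. It had 165, 171 and 172 CPM in EKO-BMDM-exo libraries and 172, 172 and 173 CPM in WT-BMDM-exo libraries, against 154, 143 and 162 CPM in PBS libraries. Every exosome library was above every PBS library, and PBS replicate 2 was the lowest. Relative to PBS, Hyou1 was at a log2 fold change of 0.15 ± 0.05 with EKO-BMDM-exo (adjusted p = 0.061, above the threshold) and 0.17 ± 0.05 with WT-BMDM-exo (12.8% higher, adjusted p = 0.02). The WT-BMDM-exo call was lost without PBS replicate 2, and likewise without any one of the WT-BMDM-exo libraries, with an adjusted p of up to 0.188. It was 0.061 without WT-BMDM-exo replicate 3 and 0.054 without WT-BMDM-exo replicate 2, at log2 fold changes of 0.17 and 0.18. For EKO-BMDM-exo against WT-BMDM-exo, Hyou1 had -0.03 ± 0.05 (adjusted p = 0.960), and DESeq2 called it for each exosome group against PBS. Hsp90b1, which encodes the ER HSP90 paralog GRP94, had log2 fold changes of 0.02 ± 0.04 with EKO-BMDM-exo (adjusted p = 0.888) and 0.05 ± 0.04 with WT-BMDM-exo (adjusted p = 0.587).

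The lectin chaperones calnexin and calreticulin hold newly made glycoproteins in a folding cycle. Canx (ENSMUSG00000020368, chr11:50293961-50325673, minus strand) had 534, 559 and 550 CPM in EKO-BMDM-exo libraries and 547, 531 and 556 CPM in WT-BMDM-exo libraries, against 508, 519 and 504 CPM in PBS libraries. The groups with exosomes did not overlap with PBS, yet the difference passed the test only for the mean of both exosome groups, with a log2 fold change of 0.10 ± 0.03 (6.98% higher, adjusted p = 0.029). That call was lost in 7 of 15 alternatives, with an adjusted p of up to 0.119. Among them were leaving out EKO-BMDM-exo replicate 2 and leaving out WT-BMDM-exo replicate 3 (adjusted p = 0.061 for the latter). Against PBS alone the adjusted p was 0.064 for EKO-BMDM-exo and 0.104 for WT-BMDM-exo. Calr had 1072, 1085 and 1082 CPM in EKO-BMDM-exo libraries and 1050, 1027 and 1083 CPM in WT-BMDM-exo libraries, against 1010, 1034 and 1003 CPM in PBS libraries. Its EKO-BMDM-exo and PBS libraries did not overlap, while its WT-BMDM-exo and PBS libraries did, and its log2 fold changes of 0.09 ± 0.03 with EKO-BMDM-exo (adjusted p = 0.084) and 0.05 ± 0.03 with WT-BMDM-exo (adjusted p = 0.453) missed the threshold. DESeq2 and limma-voom called Calr and Canx for EKO-BMDM-exo against PBS. The Canx promoter is shown beside that of Hspa5 because it holds the same element, at -145 to -127 (RefSeq, GRCm38.p6, chr11:50325624-50325923, minus strand, capitals as above).
Canx: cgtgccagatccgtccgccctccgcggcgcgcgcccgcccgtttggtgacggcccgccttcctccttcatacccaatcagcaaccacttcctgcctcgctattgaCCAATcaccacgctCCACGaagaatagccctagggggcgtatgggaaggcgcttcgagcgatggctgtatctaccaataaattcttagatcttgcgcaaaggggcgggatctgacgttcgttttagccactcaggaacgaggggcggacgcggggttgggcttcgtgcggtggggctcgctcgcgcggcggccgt

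No gene of the disulfide isomerases, the ER J proteins or the small ER stress proteins passed the main edgeR test in any comparison. Pdia6 passed with DESeq2 for WT-BMDM-exo against PBS. In that comparison edgeR called it with a replicate block, without PBS replicate 3 and without WT-BMDM-exo replicate 1. The isomerases Pdia3, P4hb, Pdia6 and Pdia4 form and reshuffle disulfide bonds, and their log2 fold changes against PBS lay between -0.02 (P4hb) and 0.09 (Pdia6) with EKO-BMDM-exo and between -0.01 (Pdia4) and 0.15 (Pdia6) with WT-BMDM-exo. Pdia3, the most abundant isomerase, had 423, 454 and 466 CPM in EKO-BMDM-exo libraries and 459, 464 and 464 CPM in WT-BMDM-exo libraries, against 448, 449 and 441 CPM in PBS libraries. EKO-BMDM-exo libraries thus spanned the whole PBS range, while WT-BMDM-exo libraries were all above it (log2 fold change 0.05 ± 0.03, adjusted p = 0.576). The J proteins Dnajb11, Dnajc3 and Dnajb9 stimulate the ATPase of BiP. Dnajb11, the most abundant of them, had 120.0, 105 and 117 CPM in EKO-BMDM-exo libraries and 108, 119 and 107 CPM in WT-BMDM-exo libraries, against 108, 104 and 111 CPM in PBS libraries. PBS overlapped with both exosome groups, at log2 fold changes of 0.09 ± 0.06 with EKO-BMDM-exo and 0.05 ± 0.06 with WT-BMDM-exo. Dnajb9, a target of XBP1, had -0.10 ± 0.11 with EKO-BMDM-exo and -0.18 ± 0.11 with WT-BMDM-exo. The genes for small ER stress proteins lay between -0.09 (Sdf2l1) and 0.17 (Manf) with EKO-BMDM-exo, and between 0.07 (Creld2) and 0.13 (Manf) with WT-BMDM-exo.

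Among the genes of ER-associated degradation, which returns misfolded proteins to the cytosol for the proteasome, Edem1 rose and the other members did not pass. Edem1 (ENSMUSG00000030104, chr6:108828641-108859356, plus strand) encodes a protein that draws misfolded glycoproteins from the calnexin cycle to degradation. It had 368, 372 and 354 CPM in EKO-BMDM-exo libraries and 350, 345 and 361 CPM in WT-BMDM-exo libraries, against 322, 306 and 327 CPM in PBS libraries. All exosome libraries were above all PBS libraries. Against PBS, the log2 difference was 0.19 ± 0.04 with EKO-BMDM-exo (14.4% higher, adjusted p = 0.0004) and 0.14 ± 0.04 with WT-BMDM-exo (10.5% higher, adjusted p = 0.013). The WT-BMDM-exo call was lost without PBS replicate 2 and without WT-BMDM-exo replicate 3, where the adjusted p was 0.112 without the first and 0.083 without the second of these. Sel1l and Syvn1, the adaptor and the ubiquitin ligase of the retrotranslocation complex, and Herpud1, an ER membrane protein that helps assemble it, had log2 fold changes against PBS between -0.004 and 0.07 with EKO-BMDM-exo and between -0.14 and 0.15 with WT-BMDM-exo. The Edem1 window is shown as a called ER gene without ERSE or ERSE-II letters (RefSeq, GRCm38.p6, chr6:108828391-108828690, plus strand, no capitals).
Edem1: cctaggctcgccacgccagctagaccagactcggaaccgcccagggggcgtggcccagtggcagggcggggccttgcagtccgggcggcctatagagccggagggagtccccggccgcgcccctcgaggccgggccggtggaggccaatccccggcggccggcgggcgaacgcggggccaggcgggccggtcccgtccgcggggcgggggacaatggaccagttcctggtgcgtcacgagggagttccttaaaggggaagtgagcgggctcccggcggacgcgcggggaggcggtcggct

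The mRNAs of the sensors and of XBP1 did not pass the test in any comparison, with edgeR, DESeq2 or limma-voom. Xbp1 had 138, 126 and 126 CPM in EKO-BMDM-exo libraries and 119, 121 and 125 CPM in WT-BMDM-exo libraries, against 129, 113 and 131 CPM in PBS libraries, and PBS libraries overlapped with both. Its log2 fold change against PBS was 0.06 ± 0.05 with EKO-BMDM-exo (adjusted p = 0.747) and -0.03 ± 0.05 with WT-BMDM-exo (adjusted p = 0.878). Atf6 had 236, 237 and 228 CPM in EKO-BMDM-exo libraries and 235, 239.9 and 232 CPM in WT-BMDM-exo libraries, against 236, 239 and 245 CPM in PBS libraries. All 3 groups overlapped, and its log2 fold change was -0.04 ± 0.04 with EKO-BMDM-exo (adjusted p = 0.780) and -0.03 ± 0.04 with WT-BMDM-exo (adjusted p = 0.845). Eif2ak3, which encodes PERK, had 48.6, 49.2 and 52.5 CPM in EKO-BMDM-exo libraries and 50.3, 43.6 and 48.0 CPM in WT-BMDM-exo libraries, against 52.1, 47.6 and 44.6 CPM in PBS libraries. These ranges overlapped too, at log2 fold changes of 0.06 ± 0.08 with EKO-BMDM-exo (adjusted p = 0.870) and -0.02 ± 0.08 with WT-BMDM-exo (adjusted p = 0.949). Ern1, which encodes IRE1, had 112, 116 and 110 CPM in EKO-BMDM-exo libraries and 111, 113 and 106 CPM in WT-BMDM-exo libraries, against 115, 114 and 115 CPM in PBS libraries. It was the 1 gene of the set whose WT-BMDM-exo libraries were all below the PBS libraries, with a log2 fold change of -0.06 ± 0.05 (adjusted p = 0.667).

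**Figure D3:**
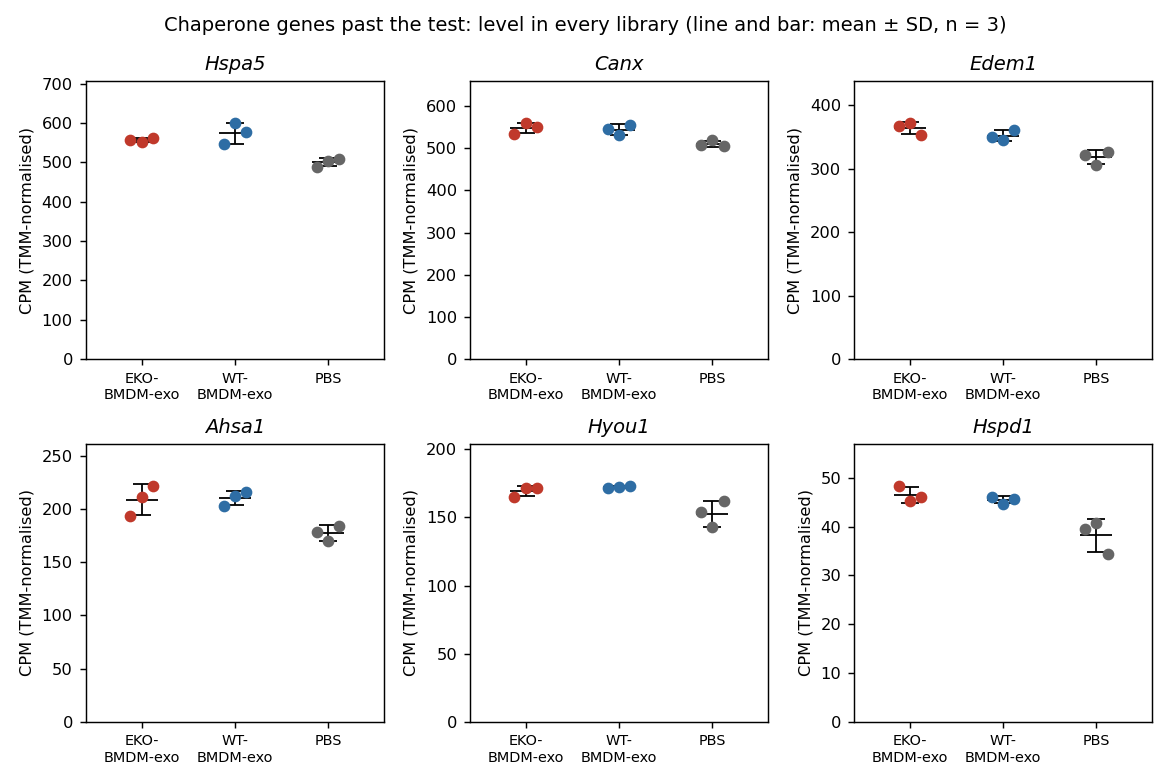
TMM-normalised CPM (axis from 0) of the 6 genes that passed the test in at least 1 comparison with PBS, with a point per library and mean ± SD of 3 libraries, for EKO-BMDM-exo, WT-BMDM-exo and PBS. In all 6 genes every exosome library lies above every PBS library.

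Of the cytosolic heat shock genes, Ahsa1 alone passed the edgeR test. Ahsa1 (ENSMUSG00000021037, chr12:87266479-87273998, plus strand) encodes AHA1, the cochaperone that speeds the ATPase of HSP90. It had 193, 212 and 221 CPM in EKO-BMDM-exo libraries and 203, 212 and 216 CPM in WT-BMDM-exo libraries, against 178, 170 and 184 CPM in PBS libraries. The exosome libraries were all above the PBS libraries. Ahsa1 was at a log2 fold change of 0.23 ± 0.05 with EKO-BMDM-exo (17.6% higher, adjusted p = 0.0009) and 0.25 ± 0.05 with WT-BMDM-exo (18.5% higher, adjusted p = 0.0006), and these calls held under every alternative run. Without WT-BMDM-exo replicate 3 the value with WT-BMDM-exo was 0.23 (adjusted p = 0.007), and that of Hspa5 was 0.19 (adjusted p = 0.001). The annotated gene starts at 87266479, so nearly all of the RefSeq window lies within it. Bases before that annotated start were not searched. The Ahsa1 window is shown as a called heat shock gene without heat shock element letters in the window (RefSeq, GRCm38.p6, chr12:87266478-87266777, plus strand, no capitals).
Ahsa1: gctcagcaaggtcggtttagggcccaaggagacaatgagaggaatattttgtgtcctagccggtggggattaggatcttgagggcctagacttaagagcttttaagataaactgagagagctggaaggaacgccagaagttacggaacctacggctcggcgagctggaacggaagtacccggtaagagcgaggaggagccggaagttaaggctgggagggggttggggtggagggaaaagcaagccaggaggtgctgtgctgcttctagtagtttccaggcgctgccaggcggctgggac

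The HSP90 genes themselves did not pass with edgeR, while DESeq2 and limma-voom called Hsp90ab1 for EKO-BMDM-exo against PBS. Hsp90ab1 had 896, 895 and 908 CPM in EKO-BMDM-exo libraries and 868, 833 and 873 CPM in WT-BMDM-exo libraries, against 852, 842 and 857 CPM in PBS libraries. EKO-BMDM-exo libraries were above all others, at log2 fold changes of 0.08 ± 0.03 against PBS (adjusted p = 0.136) and 0.07 ± 0.03 against WT-BMDM-exo (adjusted p = 0.475). Hsp90aa1, the inducible paralog, had 0.06 ± 0.09 with EKO-BMDM-exo and -0.02 ± 0.09 with WT-BMDM-exo against PBS, and 47.5% of its 50-base sequence words recur in other annotated genes, so its counts are uncertain. The other cochaperones are Stip1, which bridges HSP70 and HSP90, the J proteins Dnajb1 and Dnaja1, and the HSP70 exchange factor Bag3. Their log2 fold changes against PBS lay between 0.04 (Bag3) and 0.14 (Stip1) with EKO-BMDM-exo and between 0.01 (Dnaja1) and 0.13 (Dnajb1) with WT-BMDM-exo.

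The HSP70 and HSP110 genes of the cytosol did not pass either. Hspa8, the constitutive HSP70, had 248, 249 and 266 CPM in EKO-BMDM-exo libraries and 256, 251 and 259 CPM in WT-BMDM-exo libraries, against 243, 244 and 240 CPM in PBS libraries. The exosome libraries were all above the PBS libraries, with log2 fold changes of 0.07 ± 0.04 with EKO-BMDM-exo (adjusted p = 0.465) and 0.07 ± 0.04 with WT-BMDM-exo (adjusted p = 0.391), and 39.4% of its sequence words recur elsewhere. The HSP110 genes Hspa4 and Hsph1, nucleotide exchange factors of HSP70, each had a log2 fold change of 0.08 with EKO-BMDM-exo, and 0.01 (Hspa4) and 0.10 (Hsph1) with WT-BMDM-exo. The stress-inducible Hspa1a, a sensitive reporter of heat shock, had 44, 10 and 23 counts in EKO-BMDM-exo libraries and 17, 43 and 23 counts in WT-BMDM-exo libraries, against 33, 54 and 37 counts in PBS libraries. Its near-identical copy Hspa1b had 23, 9 and 22 counts in EKO-BMDM-exo libraries and 12, 11 and 0 counts in WT-BMDM-exo libraries, against 12, 5 and 3 counts in PBS libraries. Both were near the lower limit of detection and varied widely within groups, and 66.3% of the words of Hspa1a recur in other genes, most in Hspa1b, so reads of the pair cannot be split with certainty. Hsf1 had 39.4, 35.9 and 42.3 CPM in EKO-BMDM-exo libraries and 44.6, 39.6 and 39.2 CPM in WT-BMDM-exo libraries, against 41.5, 37.8 and 38.1 CPM in PBS libraries. PBS overlapped with both groups, at log2 fold changes of 0.004 ± 0.086 with EKO-BMDM-exo (adjusted p = 0.994) and 0.07 ± 0.09 with WT-BMDM-exo (adjusted p = 0.817).

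In mitochondria, the chaperonin gene Hspd1 passed the edgeR test with EKO-BMDM-exo and not with WT-BMDM-exo, at similar log2 fold changes. Its partner Hspe1 and the mitochondrial HSP70 gene Hspa9 did not pass. Hspd1 (ENSMUSG00000025980, chr1:55077835-55088243, minus strand) encodes HSP60 and Hspe1 (chr1:55088132-55091307, plus strand) encodes its lid HSP10. Hspd1 had 48.3, 45.2 and 46.1 CPM in EKO-BMDM-exo libraries and 46.0, 44.7 and 45.7 CPM in WT-BMDM-exo libraries, against 39.5, 40.8 and 34.4 CPM in PBS libraries. The exosome groups lay above PBS without overlap, and PBS replicate 3 was the lowest library. Hspd1 was at a log2 fold change of 0.28 ± 0.08 with EKO-BMDM-exo (21.8% higher, adjusted p = 0.034) and 0.25 ± 0.08 with WT-BMDM-exo (adjusted p = 0.075). The EKO-BMDM-exo call was lost without any one of its own libraries, without PBS replicate 1 and without PBS replicate 3, with an adjusted p of up to 0.232. For EKO-BMDM-exo against WT-BMDM-exo the value was 0.03 ± 0.08 (adjusted p = 0.971), and DESeq2 called Hspd1 for each exosome group against PBS. Of its sequence words, 42.1% recur in other genes, most in the pseudogene Hspd1-ps3, so part of its reads is uncertain.

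Hspe1 had 28.0, 23.7 and 24.4 CPM in EKO-BMDM-exo libraries and 22.0, 19.1 and 21.5 CPM in WT-BMDM-exo libraries, against 17.4, 22.6 and 24.2 CPM in PBS libraries. PBS libraries overlapped with both exosome groups, at log2 fold changes of 0.24 ± 0.12 with EKO-BMDM-exo (adjusted p = 0.367) and -0.04 ± 0.12 with WT-BMDM-exo (adjusted p = 0.949). Hspa9, the most abundant mitochondrial chaperone gene, had 162, 179 and 159 CPM in EKO-BMDM-exo libraries and 159.6, 163 and 160.2 CPM in WT-BMDM-exo libraries, against 160.4, 151 and 166 CPM in PBS libraries. It too overlapped between groups, at log2 fold changes of 0.06 ± 0.05 with EKO-BMDM-exo and 0.02 ± 0.05 with WT-BMDM-exo. Hspd1 and Hspe1 lie head to head, and their exons overlap, by 4.24% of the exon length of Hspd1 and 7.60% of that of Hspe1. Their shared promoter is shown because it holds the heat shock element, searched as 3 alternating units (GAANNTTCNNGAA). Hspd1 has 2 RefSeq starts, and the window of the start at 55088243 holds no heat shock element letters. In the window of the other start (RefSeq, GRCm38.p6, chr1:55087883-55088182, minus strand) the units, in capitals, overlap on both strands at -144 to -132 and -139 to -127 from that start at 55087932, and the same stretch lies at -89 to -72 in the Hspe1 window.
Hspd1: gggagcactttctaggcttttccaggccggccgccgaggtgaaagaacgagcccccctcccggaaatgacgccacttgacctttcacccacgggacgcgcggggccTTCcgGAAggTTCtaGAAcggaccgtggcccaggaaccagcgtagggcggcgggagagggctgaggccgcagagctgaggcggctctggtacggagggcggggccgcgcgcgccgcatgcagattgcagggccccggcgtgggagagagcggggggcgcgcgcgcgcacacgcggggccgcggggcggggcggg

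RefSeq promoter windows were at hand for 32 of the 40 genes, 37 windows in all, and 5 motifs were searched on both strands. Only exact letters were counted, so a window without a match may still hold an element with changed bases. ERSE letters stood in 8 of 37 windows against 0.119% of 32851 windows of the same length. These were Calr, Canx, Creld2, Dnajc3, Hsp90b1, Hspa5, Pdia6 and Syvn1, so 8 of 20 ER windows and 0 of 17 heat shock windows. The related ERSE-II (ATTGGNCCACG) stood in Dnajb11 and Herpud1, against 0.0365% of all windows. The core of the unfolded protein response element (TGACGTGG) stood in no window of the set, against 0.676% of all. Heat shock element letters stood in 4 of 17 heat shock windows, at 1 of 2 starts of Hspd1, at the start of Hspe1 and at 2 starts of Hsph1, against 0.603% of all windows. A CCAAT box, which also forms the first bases of ERSE and, read on the other strand, lies within ERSE-II, stood in 27 windows (73.0%) against 37.4% of all. The genes and the motifs were chosen for the same responses, so these shares only describe the set and were given no test.

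ERSE and heat shock element letters stood in called and uncalled genes. Of the 8 genes with ERSE, Hspa5 and Canx passed the edgeR test in a comparison with PBS and 6 did not. Of those 6, Calr passed with DESeq2 and limma-voom and Pdia6 with DESeq2. Of the other 12 ER genes with a window, Edem1 passed with edgeR, and Hyou1 passed and had no window here. Of the 3 genes with heat shock element letters, Hspd1 passed with edgeR. A match of letters is a description of the window and not a bound site.

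**Figure D4:**
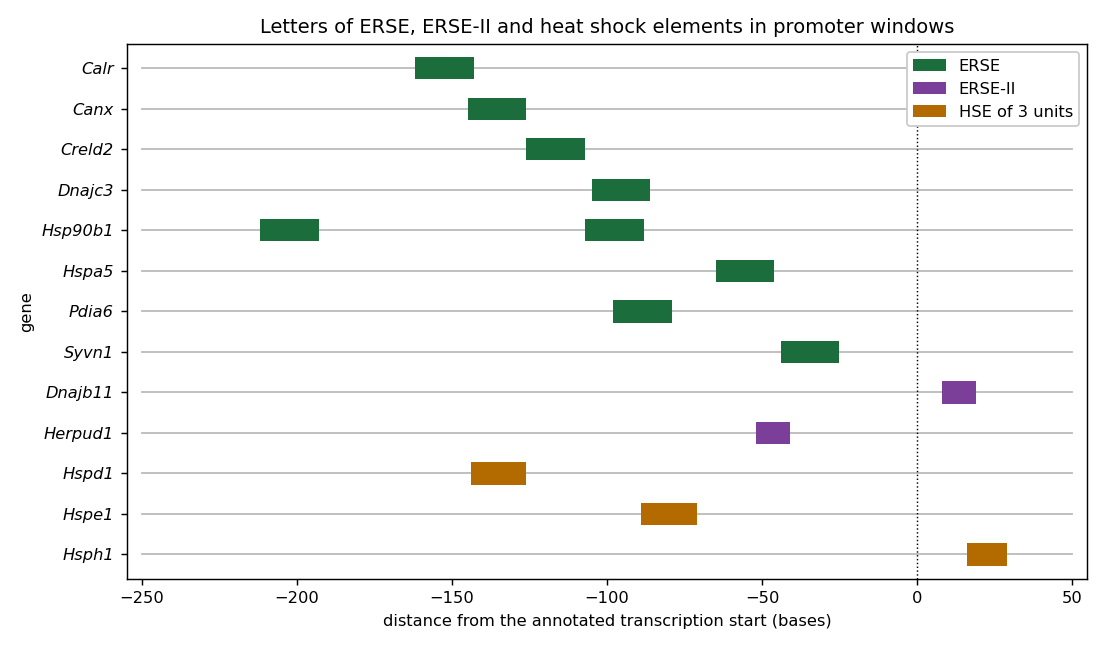
Position of ERSE (green), ERSE-II (purple) and heat shock element (brown) letters from 250 bases before to 50 after the annotated transcription start (bases, dotted line at the start) in the 13 genes of the set that hold one. Most elements lie before the start, and the Hspa5 element is at -65 to -47.

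EKO-BMDM-exo and WT-BMDM-exo, which ask whether ApoE deficiency of the vesicle-producing cells matters, were not told apart in this set. No gene passed the test (edgeR, DESeq2 and limma-voom each 0 of 39), against 0.695% of all genes with edgeR, and the lowest adjusted p was 0.417. At an unadjusted p under 0.05, 3 genes (7.69%) differed, against 8.15% of all genes. They are named after their values were seen. Sdf2l1, which forms a complex with an ER J protein, was lower with EKO-BMDM-exo at a log2 fold change of -0.17 ± 0.07, with 64.8, 62.0 and 57.6 CPM in EKO-BMDM-exo libraries, against 69.8, 70.3 and 67.6 CPM in WT-BMDM-exo libraries. The PBS libraries, at 60.7, 69.7 and 66.0 CPM, overlapped with both. The others, Hspe1 and Hsp90ab1, were higher with EKO-BMDM-exo at 0.28 ± 0.12 for Hspe1 and 0.07 ± 0.03 for Hsp90ab1. Libraries of these groups did not overlap for 8 genes (20.5%), 5 higher and 3 lower, against 14% of all genes. The 95% interval of the difference was -7.42% to 1.75% for Hspa5, -7.05% to 5.85% for Ahsa1, -1.63% to 8.91% for Edem1, -7.90% to 4.80% for Hyou1, -3.77% to 5.27% for Canx and -8.65% to 14.6% for Hspd1. These intervals are not adjusted for the number of genes.

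**Figure D5:**
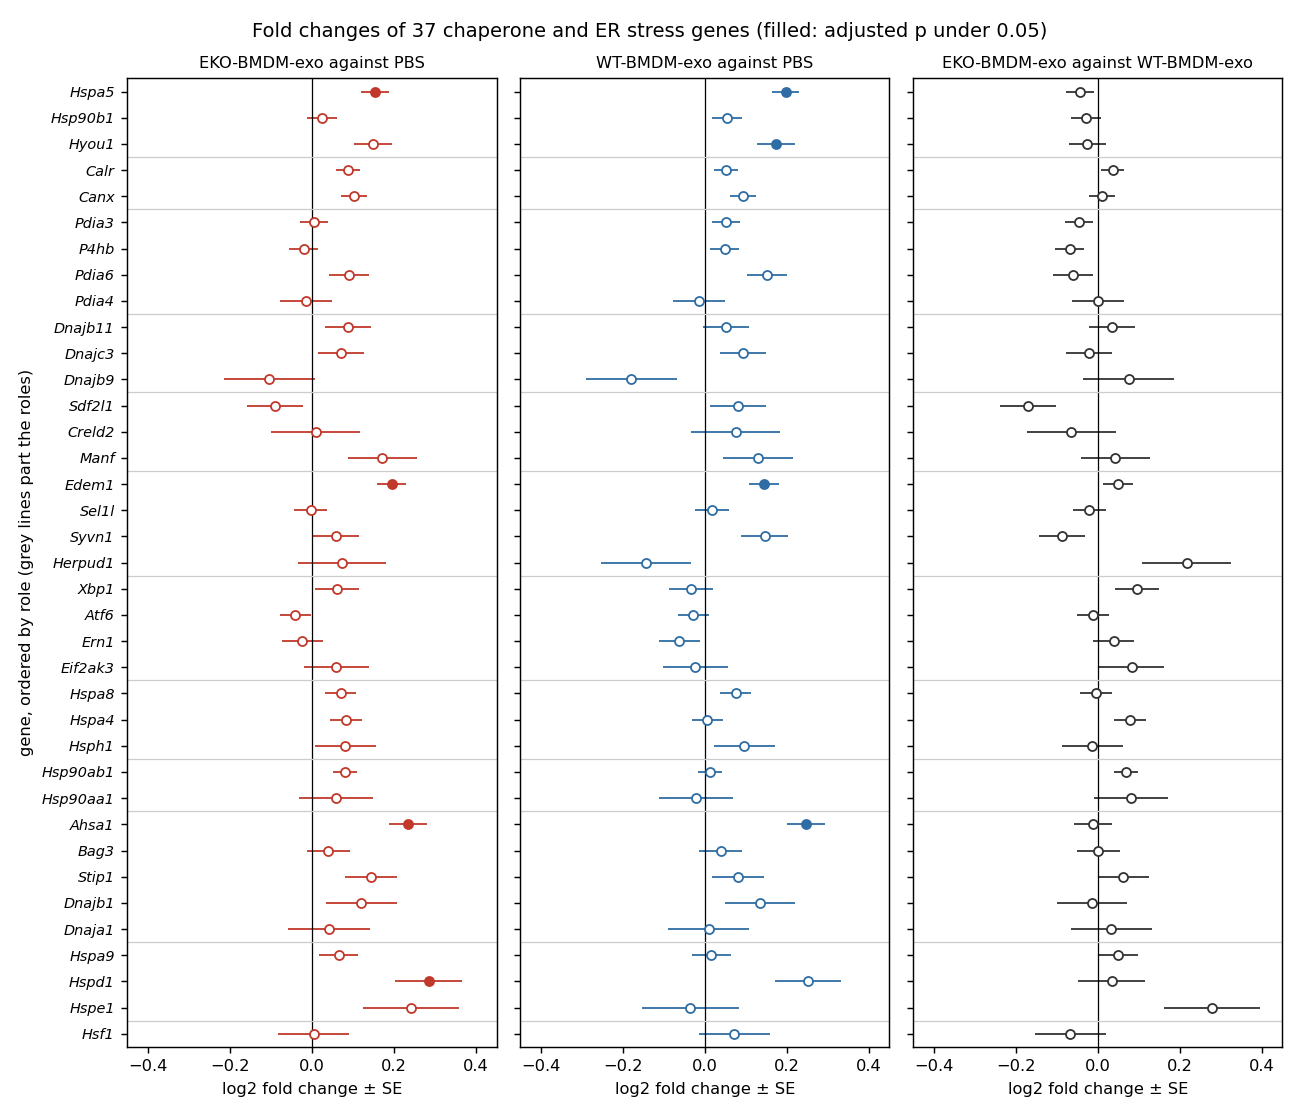
Log2 fold change ± SE of the 37 genes with over 10 CPM in every library, by role, for EKO-BMDM-exo against PBS, WT-BMDM-exo against PBS and EKO-BMDM-exo against WT-BMDM-exo; filled points have an adjusted p under 0.05 (edgeR). Filled points number 4, 4 and 0, all to the right of 0, and the largest belongs to Hspd1 with EKO-BMDM-exo at 0.28.

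Neighbouring pathways were compared through lists of genes that are not in the set. In ER import and folding, 0 of 32 tested genes passed edgeR with EKO-BMDM-exo (1 lower, Stt3a, with DESeq2, 0 with limma-voom). At an unadjusted p under 0.05 there were 6 of 32 (18.8%), against 13.1% of all genes. With WT-BMDM-exo 1 passed, Spcs3, a signal peptidase subunit, at a log2 fold change of 0.21 ± 0.06 (adjusted p = 0.035). That was 3.12% of the list, against 4.11% of all genes. At an unadjusted p under 0.05 it was 3 of 32 (9.38%), against 14% of all genes. In ER-associated degradation 0 of 19, in the CCT chaperonin and prefoldin 0 of 14, and among mitochondrial chaperones and proteases 0 of 13 passed in any of the 4 comparisons with edgeR, DESeq2 or limma-voom. At an unadjusted p under 0.05 in edgeR, EKO-BMDM-exo against PBS had 0 degradation, 0 CCT and 3 mitochondrial genes (23.1%), against 13.1% of all genes. WT-BMDM-exo against PBS had 1, 2 and 1 of these (5.26%, 14.3% and 7.69%), against 14% of all genes. EKO-BMDM-exo against WT-BMDM-exo had 0 of each, against 8.15% of all genes, and the mean of both exosome groups had 0, 1 and 1, against 15.1% of all genes. Of 29 further cytosolic chaperones and cochaperones, 0 passed with EKO-BMDM-exo by edgeR, DESeq2 or limma-voom (4 at an unadjusted p under 0.05 in edgeR, 13.8%, near the 13.1% of all genes). With WT-BMDM-exo the HSP70 exchange factor Hspbp1 was higher (0.34 ± 0.10, adjusted p = 0.049) and the J protein Dnajb4 lower (-0.36 ± 0.10, adjusted p = 0.037). Together they were 6.9% of the list, against 4.11% of all genes. DESeq2 called both and Fkbp4 for WT-BMDM-exo, while limma-voom called only Dnajb4. At an unadjusted p under 0.05 in edgeR, 5 of 29 (17.2%) differed with WT-BMDM-exo, against 14% of all genes. For the mean of both exosome groups, Fkbp4, an HSP90 cochaperone, was higher (0.21 ± 0.06, adjusted p = 0.032). It made 3.45% of the list, against 5.31% of all genes.

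In signalling of the unfolded protein and integrated stress responses, 1 of 19 tested genes passed with edgeR, and it moved in opposite directions in the exosome groups. That was 5.26% of the list, against 4.23% of all genes for EKO-BMDM-exo against PBS and 4.11% for WT-BMDM-exo against PBS. Between EKO-BMDM-exo and WT-BMDM-exo the share of all genes was 0.695%. Atf4, the transcription factor downstream of PERK, had 133, 140 and 129 CPM in EKO-BMDM-exo libraries and 89.6, 94.1 and 99.2 CPM in WT-BMDM-exo libraries, against 116, 118 and 118 CPM in PBS libraries. No groups overlapped, with EKO-BMDM-exo above PBS and WT-BMDM-exo below it. The log2 fold change against PBS was 0.19 ± 0.05 with EKO-BMDM-exo (adjusted p = 0.024) and -0.32 ± 0.05 with WT-BMDM-exo (adjusted p = 7.7e-05). Its difference between EKO-BMDM-exo and WT-BMDM-exo was 0.51 ± 0.05 (adjusted p = 7e-08), whereas 0 of the 39 chaperone genes tested passed that comparison. Of the rest of the list, DESeq2 called Sesn2, a stress-inducible gene, lower with WT-BMDM-exo against PBS, where edgeR gave a log2 fold change of -0.29 ± 0.09 (adjusted p = 0.059). The other 17 genes did not pass in any comparison with edgeR, DESeq2 or limma-voom. At an unadjusted p under 0.05, 3 of the 19 genes (15.8%) differed for EKO-BMDM-exo against PBS, against 13.1% of all genes, and 4 (21.1%) for WT-BMDM-exo against PBS, against 14%. Between EKO-BMDM-exo and WT-BMDM-exo 4 genes (21.1%) did so, against 8.15% of all genes, and libraries did not overlap for 5 (26.3%), against 14%. Log2 fold changes in that comparison ran from -0.25 (Creb3l2) to 1.80 (Chac1), and Chac1 was low, at a mean of 0.913 CPM with EKO-BMDM-exo and 0.262 CPM with WT-BMDM-exo (adjusted p = 0.649). Sesn2, Creb3l2 and Chac1 are named after their values were seen.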

How the data were processed

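RNA-seq was measured in 9 libraries, 3 per group. The authors deposited raw counts per Ensembl gene; per the submitters' processing notes, the aligner STAR 2.7.5c and the build GRCm38 were used. No source used here gives the annotation, the strand setting or any trimming. The labels' protocols name a kit for mRNA libraries. Without strand, reads of overlapping genes cannot be told apart. Symbols, coordinates and exon lengths came from GENCODE M21, which matched 55450 of 55536 IDs.

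Counts were tested with edgeR 4.0.16 in R 4.3.3: filterByExpr (minimum count 10, 13815 genes left), TMM scaling, and a quasi-likelihood fit on all 9 libraries with group as the only term. P-values were adjusted by Benjamini-Hochberg over all genes, with a threshold of 0.05, and every adjusted p of a gene is of this kind unless another tool is named. The biological coefficient of variation was 12.0%. SEs derive from the F statistics. CPM are TMM-normalised, and TPM were computed from the counts and exon lengths. Total counts per library, given with the results, limit precision for low genes. No exact permutation test was run, since 3 against 3 cannot give a p below 0.1. Counts of each pair of libraries differed by more than sampling noise (chi-square per gene 6.76 to 10.2 within groups), so all were kept.

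Alternatives were DESeq2 1.42.0, limma-voom 3.58.1, RLE scaling, no filter, a minimum count of 30, only the libraries compared, a replicate block, and leaving out each library; TPM replaced CPM only for counting genes with a mean above PBS. Promoter windows are from RefSeq (GRCm38.p6). The shared 50-base words were counted between annotated transcripts. The 40 genes, the other lists, the motifs and the tests were chosen with earlier results of these data known. Values in every library are given for genes called in any comparison, for the most abundant gene of a role and for the sensors, Hsf1, Hspa1a and Hspa1b; promoters are printed for called genes with a motif and for 2 without.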

Additional observations from a re-analysis of the deposited data

Results flagged for a closer look

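Atf4, the transcription factor downstream of PERK, changed in opposite directions in the exosome groups against the shared PBS libraries, and the direct test of that difference passed. EKO-BMDM-exo was higher than WT-BMDM-exo by 0.51 on the log2 scale (edgeR quasi-likelihood, adjusted p = 7e-08), in 3 of 3 libraries against 3 of 3, with a 95% interval of 32.0% to 52.7%. Gene counts do not show ATF4 protein, whose synthesis is controlled in translation.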

How the results depend on the processing

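The set counts 4, 4, 0 and 6 genes called for EKO-BMDM-exo against PBS, WT-BMDM-exo against PBS, EKO-BMDM-exo against WT-BMDM-exo and the mean of both exosome groups against PBS. DESeq2 called 8 genes for EKO-BMDM-exo against PBS, adding Calr, Canx, Hsp90ab1 and Hyou1, and 7 for WT-BMDM-exo against PBS, adding Canx, Hspd1 and Pdia6; limma-voom called 7 for EKO-BMDM-exo against PBS. Over all genes, EKO-BMDM-exo against WT-BMDM-exo gave 96 calls with edgeR and 156 with DESeq2. Leaving out each library gave 3 to 4, 2 to 5, 0 to 0 and 4 to 6 genes of the set, and 421 to 586, 408 to 536, 52 to 109 and 479 to 689 of all genes, in the order of comparisons above. The lowest counts were for WT-BMDM-exo against PBS 2 genes of the set without PBS replicate 2 and 2 without WT-BMDM-exo replicate 3, for all genes of EKO-BMDM-exo against WT-BMDM-exo 52, 56, 59 and 56 without EKO-BMDM-exo replicate 1, EKO-BMDM-exo replicate 2, WT-BMDM-exo replicate 2 and WT-BMDM-exo replicate 3, and for all genes of the mean 479 without PBS replicate 2. Single genes were called 14 times over the 4 comparisons, and 8 of these calls were kept in all 15 or 16 alternatives: Hspa5 and Ahsa1 in the 3 comparisons with PBS, and Edem1 for EKO-BMDM-exo and for the mean. The other 6 were lost in at least 1, and 0 reversed. Hspd1 for the mean of both exosome groups was lost without PBS replicate 3 (adjusted p = 0.189), and Hyou1 without PBS replicate 2 (0.174). With a replicate block, 7 genes of the set were called for EKO-BMDM-exo against PBS, 5 for WT-BMDM-exo against PBS, 0 for EKO-BMDM-exo against WT-BMDM-exo and 6 for the mean. Over all genes, the block called 293 higher and 369 lower for EKO-BMDM-exo against PBS, where the main fit called 252 and 333. For WT-BMDM-exo against PBS it called 323 and 346 against 267 and 301, and between the exosome groups 64 and 80 against 39 and 57. The labels do not say that a replicate number marks a shared mouse, batch or day, so the numbers were not treated as pairing. Same-numbered libraries did not deviate together (correlation -0.035 to 0.040 over 9 pairs). The cause of these shifts was not tested. Hspa1a, Hspa1b and Hspb1 had at most 54 counts in a library, which limits their precision. Of their sequence words, 66.3%, 62.3% and 50.1% recur in other genes, and the part of this in their low counts was not tested.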
